A study of Mus musculus with 9 samples.

Results

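Axon guidance cues are proteins that growing axons and migrating cells read through receptors on their surface. The genes described here are the 4 classical cue systems, the semaphorins with the plexins and neuropilins, the slits with the Robo receptors, the ephrins with the Eph receptors, and the netrins with Dcc and the Unc5 receptors, as measured in cells sorted from developing mouse liver. Members were all genes whose symbol begins with Sema (classes 3 to 7), Plxn, Robo1 to Robo4, Epha, Ephb, Efna, Efnb, Ntn1 to Ntn5 or Unc5. Genes with the symbol Slit1, Slit2, Slit3, Nrp1, Nrp2 or Dcc were also members. This gave 70 of the 19938 named genes on the array, namely 35 cues, 33 receptors and 2 genes that fit by name alone. The 2 were Unc50, an unrelated membrane protein, and Unc5cl, a death-domain protein named for its likeness to Unc5c, and they are counted in totals but in neither class. Ephb2 also fits the rule but has no probe set of its own, and it was not analysed here.

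The cells were negative for CD45, a marker of blood cells, and for Ter119, a marker of red blood cells, and positive for a DsRed reporter placed in the gene of the chemokine Cxcl12. They came from the livers of C57BL/6 mice of genotype Cxcl12DsRed/+ taken before birth on the embryonic day called E15.5 and after birth on postnatal days 5 (P5) and 10 (P10), with 3 arrays per stage. The mice of all 3 stages carry the same reporter allele beside 1 plain Cxcl12 allele, so the cells are defined by activity of the Cxcl12 gene, and no treatment is named. The replicates are described as independent, but the animals behind an array and any pooling are not given in the sources used here, so the spread behind a p-value is the spread between arrays.

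In textbook terms, class 3 semaphorins are secreted and bind neuropilins, which pass the signal on through plexins, whereas most semaphorins of the other vertebrate classes are membrane proteins that bind plexins directly. Slits are large secreted proteins that repel cells carrying Robo receptors. Ephrins are tied to the cell surface, the A class by a lipid anchor and the B class by a membrane-spanning stretch, and signal at cell contacts to Eph receptor tyrosine kinases and also back into their own cell. Netrins are relatives of laminin that attract through Dcc and repel through Unc5 receptors. Outside the nervous system the same systems take part in blood vessel growth, cell sorting and the migration of mesenchymal cells.

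The unit is the log2 signal that robust multi-array averaging (RMA) gives per probe set, so a difference of 1 is a 2-fold change in signal, and levels of different genes are not set against each other because each probe set has its own response. Errors of differences are standard errors (SE) from limma fitted to all 9 arrays and 19938 genes, and a gene was called where its p-value, after the adjustment of Benjamini and Hochberg across the whole array, was under 0.05. Medians of the named genes ran from 6.69 to 6.82 over the 9 arrays. Percentile 30 of all genes and arrays was 5.69 (log2), used below as a mark for dim probe sets in the absence of a detection test. Across genes, arrays of the same stage correlated at r = 0.986 to 0.995 and arrays of different stages at r = 0.875 to 0.985.

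The sort and its label were checked against marker genes. The 12 hepatic stellate cell markers had a mean log2 signal of 9.78 to 9.98 on the E15.5 arrays, 8.12 to 8.52 at P5 and 7.91 to 8.19 at P10. Of them 12 were called lower at P5 and 11 at P10, beside 17.7% and 18.6% of all genes. The mean of the 10 measured hepatocyte markers moved the other way, from 10.15 to 10.37 at E15.5 to 12.39 to 12.45 at P5 and 12.21 to 12.57 at P10. Of the 10, 9 were called higher at P5 and 5 at P10, beside 17.9% and 20.1% of all genes. Most of the rise of the hepatocyte mean came from 4 genes, Cyp2e1, Tat, Cps1 and Hpx, which were 7.17, 5.98, 4.20 and 2.19 higher at P5. The list's median difference was 0.51 at P5 and 0.22 at P10. At E15.5 Cyp2e1 and Tat, with means of 5.53 and 5.68, lay under percentile 30 of all genes and arrays. Alb, Ttr, Apoa1 and Trf already had E15.5 means of 13.14, 13.17, 13.11 and 12.76. How far so high a signal can still rise was not tested. Cxcl12 itself had stage means of 10.98 before birth, then 10.17 at P5 and 10.13 at P10, the stellate cell enzyme gene Lrat had 10.68 before birth, then 8.24 at P5 and 7.72 at P10, albumin (Alb) had 13.14 before birth, then 13.20 at P5 and 13.13 at P10 and the endothelial adhesion gene Pecam1 had 6.46 before birth, then 7.12 at P5 and 6.68 at P10. In such bulk samples, fewer cells of a type and less RNA per cell cannot be told apart. The part of the stellate cell and hepatocyte markers in the differences below was not tested.

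Guidance genes fell from E15.5 to the postnatal stages more often than they rose. At P5, 36 of the 70 members (51.4%) were called, beside 35.6% of all genes. Lower than at E15.5 were 31 (44.3% of members) and higher 5 (7.14%), while 17.7% of all genes were called lower and 17.9% higher. At P10, 37 members (52.9%) were called, beside 38.7% of all genes. Lower were 35 (50% of members) and higher 2 (2.86%), beside 18.6% and 20.1% of all genes. The median difference over the members was -0.19 at P5 and -0.39 at P10, beside 0.029 and 0.024 over all genes. Both comparisons use the same E15.5 arrays. With the deposited values normalised again by quantiles, the direction of the calls was less uneven, at 12 higher and 29 lower for P5 and 19 higher and 34 lower for P10, and this setting moved the median of all genes to 0.12 and 0.15. Centring each array on the median of all genes gave 9 higher and 35 lower at P10. The count of 5 higher at P5 became 3 without P10 array 2 or without P10 array 3, and the 2 higher at P10 became 4 without P5 array 3.

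Receptors were called lower in larger shares than cues. At P5, 17 of the 33 receptors (51.5%) and 13 of the 35 cues (37.1%) were called lower, and 1 receptor and 4 cues were called higher. At P10 the counts were 20 receptors (60.6%) and 14 cues lower, and 2 cues were higher. No receptor was called higher at P10 by limma, and 1 had an unadjusted p under 0.05 in that direction. The median difference at P5 was -0.42 over receptors and -0.18 over cues, and at P10 it was -0.50 over receptors and -0.20 over cues. With quantile normalisation the P10 medians moved to -0.31 for receptors and -0.0094 for cues. The difference between the classes itself was not tested.

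**Figure D1:**
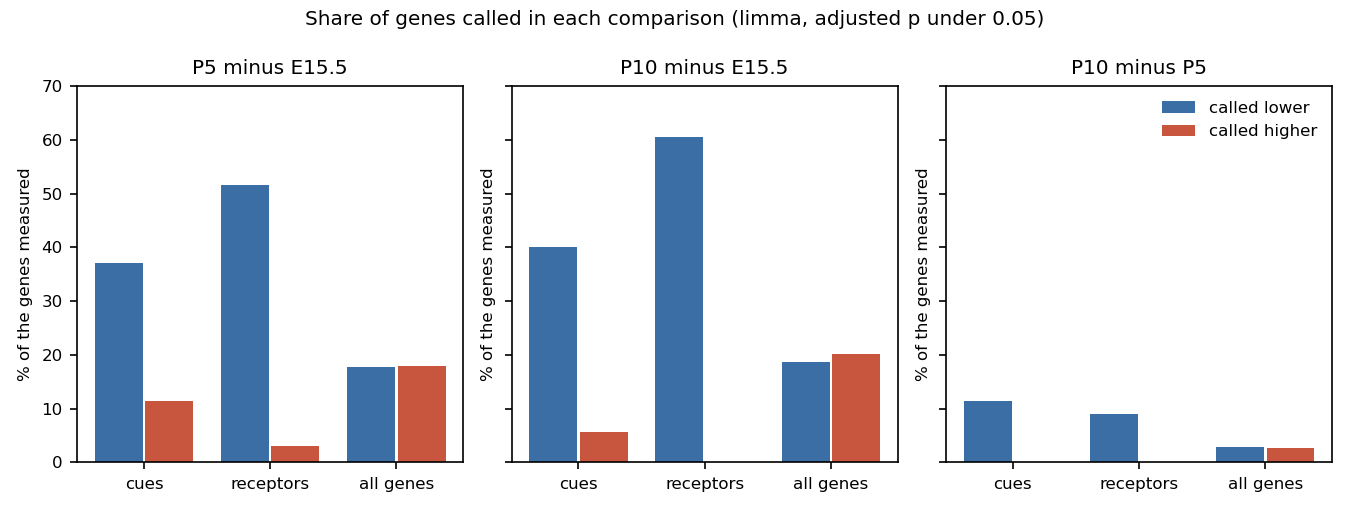
Share of genes (%, vertical axis) called lower (blue) and higher (red) by limma among the 35 cues, the 33 receptors and all 19938 genes, in 3 panels for the comparisons of each postnatal stage with E15.5 and of the postnatal stages with each other. Receptors reach 51.5% lower at P5 and 60.6% at P10, whereas all genes split nearly evenly between lower and higher.

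Arrays of 2 stages did not overlap for 38 members at P5 against E15.5 and for 45 at P10 against E15.5, that is 54.3% and 64.3% of members, beside 45.2% and 51.7% of all genes. By the pattern of calls, 26 members were lower at both P5 and P10 than at E15.5 with no call between the postnatal stages, and 4 more (Sema5a, Sema6d, Plxnb2 and Robo2) were also lower at P10 than at P5. Sema4a and Sema4g were higher at both postnatal stages. Sema3c rose at P5 and fell again at P10, 8 members had other patterns of calls, and 29 had no call. A total of 22 members were called with a difference of at least 1 on the log2 scale in some comparison, and their values on every array are given below by system. At P5 against E15.5, 18 of the 70 members were that much lower and 1 higher, beside 6.8% and 7.2% of all genes (14% in either direction). At P10 against E15.5, 20 of the 70 were lower and 1 higher, beside 8.21% and 9.06% of all genes (17.3% in either direction). Between P5 and P10, 2 were that much lower, beside 0.813% of all genes (1.21% in either direction).

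**Figure D2:**
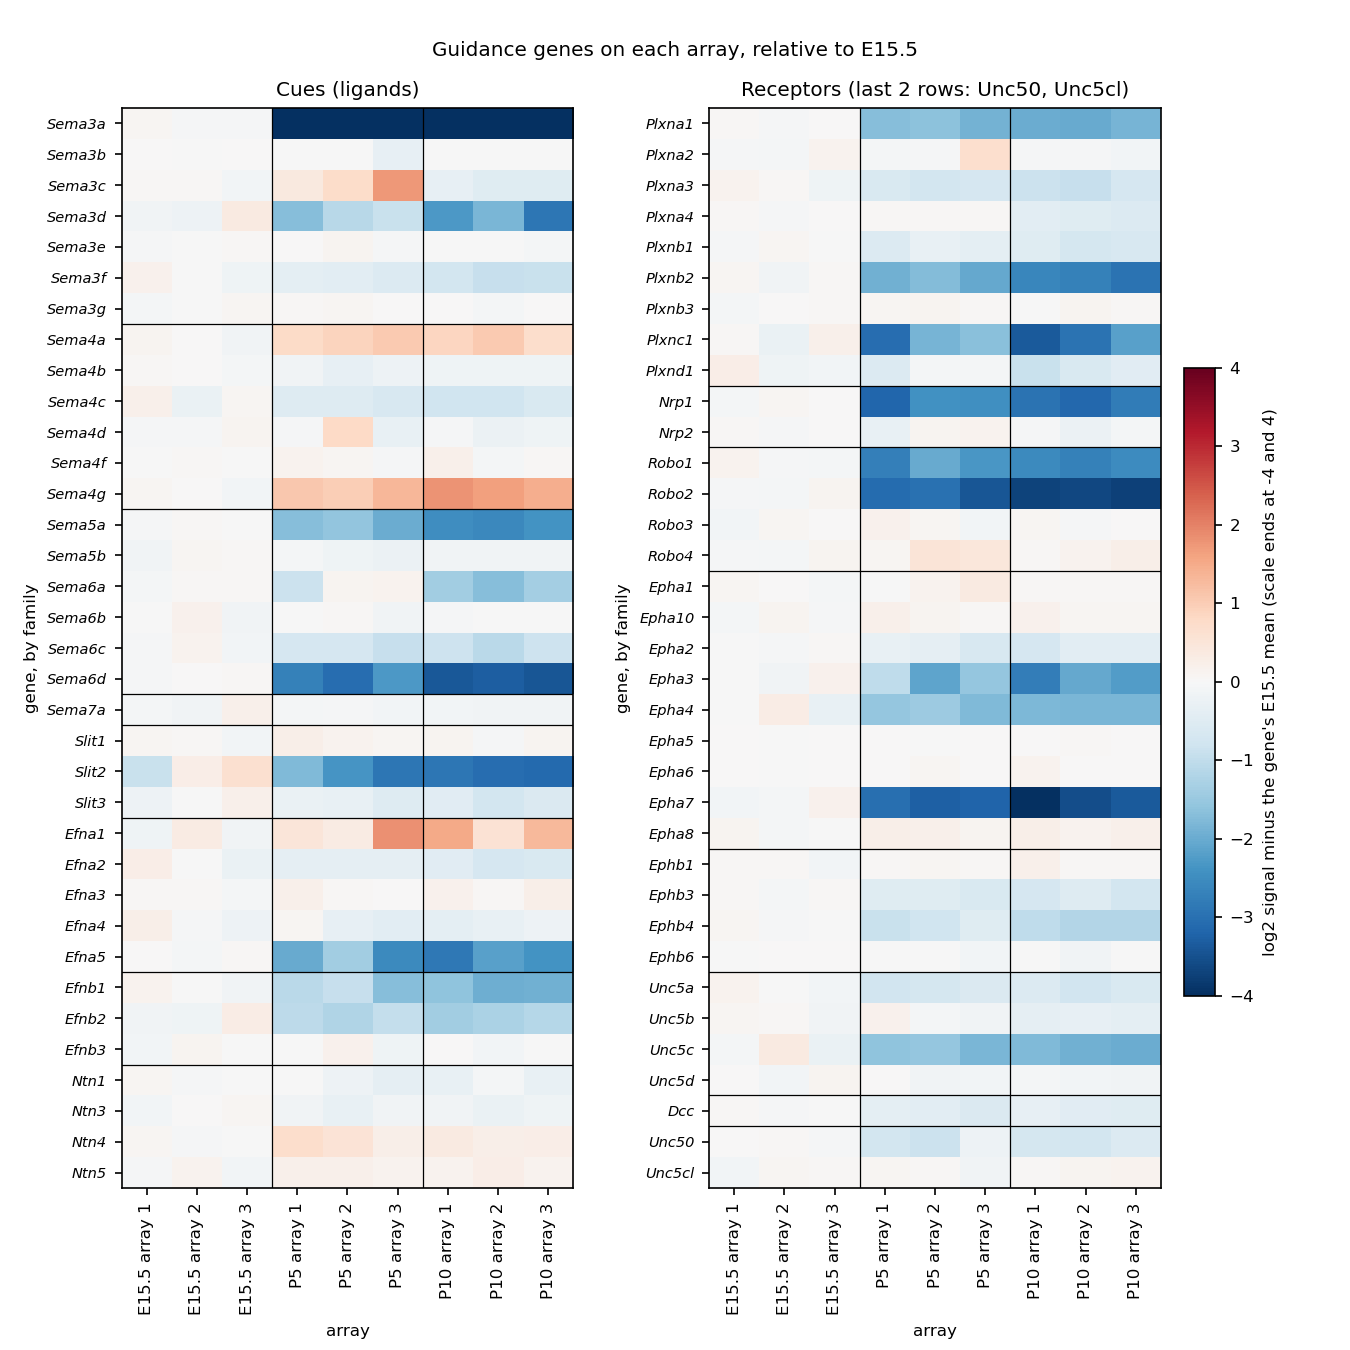
Log2 signal of each member on each of the 9 arrays minus the mean of its 3 E15.5 arrays, as colour (blue lower, red higher, the scale ending at -4 and 4), with cues in the left panel and receptors and the 2 genes that fit by name alone in the right, grouped by family. Sema3a, Robo2, Epha7 and Sema6d are dark blue on all 6 postnatal arrays, and Sema4a and Sema4g are red on all 6.

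Among the 7 class 3 semaphorins, 3 (42.9%) fell and 1 (14.3%) rose at P5, beside 17.7% and 17.9% of all genes. Sema3a showed the largest fall of any member. Sema3a, a secreted repellent that signals through Nrp1 and plexin-A receptors, had signals of 10.87, 10.76 and 10.75 at E15.5, 5.67, 5.28 and 5.62 at P5 and 5.38, 5.20 and 5.35 at P10. The E15.5 arrays lay far above the 6 postnatal ones, and P5 and P10 overlapped. Against E15.5 the difference was -5.27 ± 0.11 at P5 (adjusted p = 2.22e-08), a 38.6-fold lower signal, and -5.48 ± 0.11 at P10 (adjusted p = 1.21e-08), a 44.7-fold lower signal. Its postnatal means were under the mark for dim probe sets, so the fall may be understated.

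Sema3d, another secreted member, had signals of 8.17, 8.11 and 8.67 at E15.5, 6.62, 7.21 and 7.43 at P5 and 6.02, 6.49 and 5.44 at P10. The stages did not overlap in any pair. The difference from E15.5 was -1.23 ± 0.30 at P5 (adjusted p = 0.0126) and -2.33 ± 0.30 at P10 (adjusted p = 0.000319), and that of P10 from P5, at -1.10 ± 0.30 (adjusted p = 0.0804), was not called. Sema3f, the ligand of Nrp2, differed by -0.45 ± 0.10 at P5 (adjusted p = 0.00812) and -0.85 ± 0.10 at P10 (adjusted p = 0.000185) and fell in both comparisons.

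Sema3c, a secreted cue known from heart outflow tract development, followed another course. Its signals were 5.68, 5.68 and 5.54 at E15.5, 6.02, 6.36 and 7.37 at P5 and 5.30, 5.16 and 5.15 at P10. The 3 P5 arrays lay above those of both other stages, and P5 array 3 was the highest by about 1 unit. Sema3c differed from E15.5 by 0.95 ± 0.29 at P5 (adjusted p = 0.0330), and P10 differed from P5 by -1.38 ± 0.29 (adjusted p = 0.0317). The call at P5 was lost without E15.5 array 1, 2 or 3 or P10 array 2 or 3 (adjusted p = 0.051 to 0.095), and that between P5 and P10 was lost without any 1 of the 9 arrays except P5 arrays 1 and 3 (adjusted p = 0.051 to 0.11). The E15.5 and P10 means lay under the mark for dim probe sets.

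Class 4 held both cues that were higher at both postnatal stages. Sema4g, a membrane-bound semaphorin, had signals of 7.83, 7.75 and 7.64 at E15.5, 8.83, 8.72 and 9.07 at P5 and 9.54, 9.37 and 9.18 at P10. The values rose from stage to stage with no overlap. Its difference from E15.5 was 1.13 ± 0.12 at P5 (adjusted p = 0.000114) and 1.62 ± 0.12 at P10 (adjusted p = 9.76e-06), and the step from P5 to P10 was 0.49 ± 0.12 (adjusted p = 0.0522). Sema4a, a membrane semaphorin studied mostly in immune cells, was higher by similar amounts at both stages, 0.90 ± 0.11 at P5 (adjusted p = 0.000337) and 0.87 ± 0.11 at P10 (adjusted p = 0.000320). Sema4c, a ligand of Plxnb2, fell, with -0.56 ± 0.12 at P5 (adjusted p = 0.00627) and -0.74 ± 0.12 at P10 (adjusted p = 0.00119). Its P5 arrays 1 and 2 held the same value of 6.27, which lowers its SE. Sema4b was called lower in 1 comparison, at -0.22 ± 0.067 at P5 (adjusted p = 0.0316), a call that was lost without E15.5 array 1 or 2, P5 array 2 or 3 or P10 array 3 (adjusted p = 0.051 to 0.099).

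In classes 5 and 6, whose members span the membrane, 3 of 6 (50%) fell at P5 and 4 (66.7%) at P10, beside 17.7% and 18.6% of all genes. Sema6d, a ligand of Plxna1, had signals of 11.06, 11.13 and 11.17 at E15.5, 8.42, 8.06 and 8.81 at P5 and 7.72, 7.81 and 7.71 at P10. Its difference from E15.5 was -2.69 ± 0.16 at P5 (adjusted p = 4.51e-06) and -3.37 ± 0.16 at P10 (adjusted p = 8.28e-07), the latter a 10.4-fold lower signal. Sema5a, which carries thrombospondin repeats, had signals of 9.14, 9.21 and 9.16 at E15.5, 7.46, 7.60 and 7.19 at P5 and 6.70, 6.59 and 6.79 at P10. Both genes had non-overlapping arrays in all 3 pairs of stages. Sema5a differed from E15.5 by -1.75 ± 0.10 at P5 (adjusted p = 4.39e-06) and -2.48 ± 0.10 at P10 (adjusted p = 4.32e-07). Sema6c fell as well, by less, with -0.76 ± 0.11 at P5 (adjusted p = 0.000752) and -0.91 ± 0.11 at P10 (adjusted p = 0.000197).

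Sema6a, a ligand of plexin-A receptors, had signals of 8.54, 8.65 and 8.65 at E15.5, 7.76, 8.72 and 8.77 at P5 and 7.23, 6.92 and 7.25 at P10. At P5, arrays 2 and 3 lay just above the E15.5 arrays and array 1 was about 1 unit lower than them, while all P10 arrays were below all others. The difference from E15.5 was -0.20 ± 0.25 at P5 (adjusted p = 0.594) and -1.48 ± 0.25 at P10 (adjusted p = 0.00138).

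The receptors of the semaphorins moved in 1 direction where they were called. Of the 9 plexins and 2 neuropilins, 6 (54.5%) fell at P5 and 8 (72.7%) at P10, beside 17.7% and 18.6% of all genes. Nrp1, the co-receptor of Sema3a and also of vascular endothelial growth factor, had signals of 10.11, 10.29 and 10.20 at E15.5, 7.04, 7.77 and 7.76 at P5 and 7.26, 7.05 and 7.41 at P10. Its difference from E15.5 was -2.68 ± 0.19 at P5 (adjusted p = 1.32e-05) and -2.96 ± 0.19 at P10 (adjusted p = 5.09e-06). Nrp2, the co-receptor of Sema3f, had stage means of 6.68 before birth, then 6.67 at P5 and 6.56 at P10 and differences of -0.01 ± 0.12 at P5 (adjusted p = 0.968) and -0.12 ± 0.12 at P10 (adjusted p = 0.483), so that within the pair of neuropilins a change was called in Nrp1 and not in Nrp2. Whether the 2 differ from each other was not tested.

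Plxna1, a signalling partner of Nrp1 and receptor of Sema6d, had signals of 9.57, 9.48 and 9.54 at E15.5, 7.83, 7.89 and 7.65 at P5 and 7.54, 7.50 and 7.68 at P10. Plxnb2, a receptor of class 4 semaphorins, had signals of 9.53, 9.29 and 9.48 at E15.5, 7.50, 7.71 and 7.39 at P5 and 6.81, 6.74 and 6.49 at P10. In both, every E15.5 array was above every postnatal one, and for Plxnb2 P5 was also above P10 throughout. The difference from E15.5 was -1.74 ± 0.080 at P5 (adjusted p = 1.10e-06) and -1.95 ± 0.080 at P10 (adjusted p = 3.83e-07) for Plxna1. For Plxnb2 it was -1.90 ± 0.12 at P5 (adjusted p = 5.09e-06) and -2.75 ± 0.12 at P10 (adjusted p = 4.40e-07).

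Plxnc1, the receptor of Sema7a, had signals of 9.42, 9.09 and 9.58 at E15.5, 6.31, 7.51 and 7.68 at P5 and 6.00, 6.41 and 7.18 at P10. The postnatal arrays spread widely, and P5 array 1 was lower than the other P5 arrays. Plxnc1 differed from E15.5 by -2.20 ± 0.40 at P5 (adjusted p = 0.00271) and -2.84 ± 0.40 at P10 (adjusted p = 0.000523). Smaller falls were called at both postnatal stages for Plxna3, another plexin-A, with -0.67 ± 0.10 at P5 (adjusted p = 0.000819) and -0.81 ± 0.10 at P10 (adjusted p = 0.000211), and for Plxnb1, the receptor of Sema4d, with -0.42 ± 0.083 at P5 (adjusted p = 0.00453) and -0.62 ± 0.083 at P10 (adjusted p = 0.000409). Plxna4 and Plxnd1 were called lower at P10 and not at P5, with 0.04 ± 0.057 at P5 (adjusted p = 0.616) and -0.48 ± 0.057 at P10 (adjusted p = 0.000199) for Plxna4 and -0.24 ± 0.17 at P5 (adjusted p = 0.349) and -0.65 ± 0.17 at P10 (adjusted p = 0.0168) for Plxnd1, the vascular receptor of Sema3e. The P10 call of Plxnd1 was lost without E15.5 array 1 or without P10 array 1 (adjusted p = 0.059 to 0.061).

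**Figure D3:**
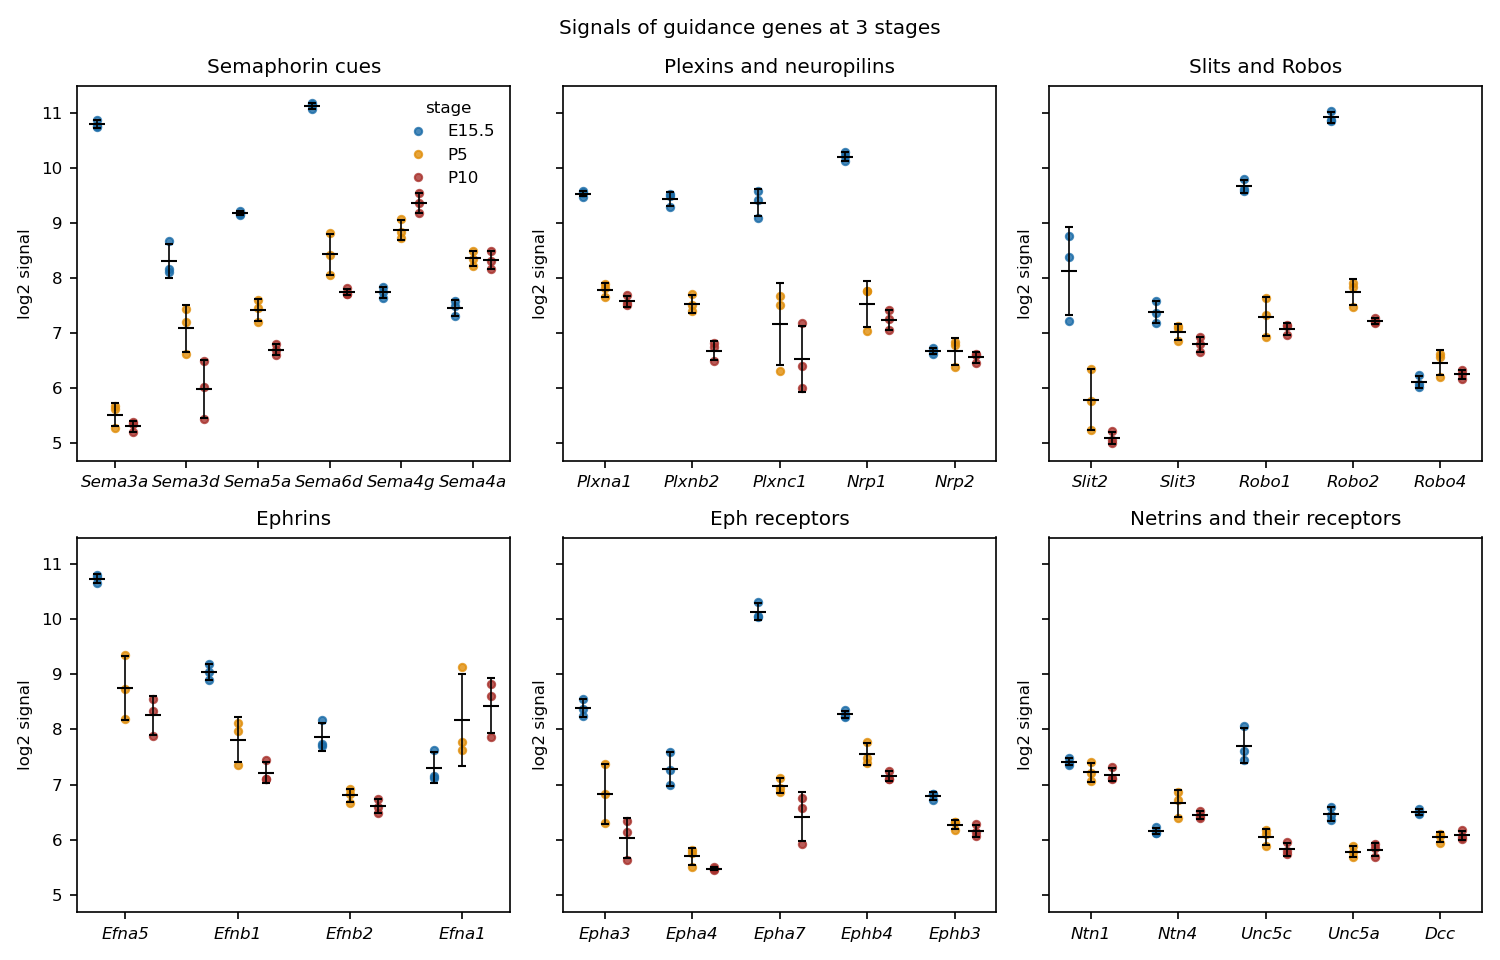
Log2 signal (vertical axis) of guidance genes on the 3 arrays of each stage (blue E15.5, orange P5, red P10), in 6 panels by system, with the mean as a horizontal bar and SD over 3 arrays as whiskers. Sema3a falls from 10.79 to 5.52 and 5.31 on average and Nrp1 from 10.20 to 7.52 and 7.24, while Sema4g rises and the stage means of Nrp2 lie between 6.56 and 6.68.

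Of the 3 slits, Slit2 fell at both postnatal stages and Slit3 at P10. Slit2, a secreted repellent, had signals of 7.22, 8.38 and 8.77 at E15.5, 6.36, 5.77 and 5.24 at P5 and 5.22, 5.06 and 5.01 at P10. The E15.5 arrays differed by more than 1.5 units among themselves, with array 1 lowest, yet lay above all postnatal arrays. The difference from E15.5 was -2.33 ± 0.40 at P5 (adjusted p = 0.00191) and -3.02 ± 0.40 at P10 (adjusted p = 0.000348). The P10 mean of Slit2 was under the mark for dim probe sets. Leaving out P5 arrays 2 and 3 together, an alternative added after the data were seen, ended the P5 call (adjusted p = 0.054). Slit3 was called lower at P10, with -0.36 ± 0.12 at P5 (adjusted p = 0.0534) and -0.58 ± 0.12 at P10 (adjusted p = 0.00530).

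Robo1 and Robo2, the receptors of Slit2 and direct neighbours on their chromosome in the RefSeq gene order, fell together. Robo1 had signals of 9.80, 9.62 and 9.58 at E15.5, 6.93, 7.64 and 7.33 at P5 and 7.13, 6.96 and 7.15 at P10, and the difference from E15.5 was -2.37 ± 0.16 at P5 (adjusted p = 1.05e-05) and -2.59 ± 0.16 at P10 (adjusted p = 4.36e-06). Robo2 had signals of 10.87, 10.84 and 11.02 at E15.5, 7.84, 7.91 and 7.48 at P5 and 7.20, 7.27 and 7.19 at P10, and the difference was -3.16 ± 0.11 at P5 (adjusted p = 2.73e-07) and -3.69 ± 0.11 at P10 (adjusted p = 8.81e-08), an 8.96-fold and a 12.9-fold lower signal. For both genes the E15.5 arrays were above all postnatal ones. Robo4, the endothelial member of the family, was the one receptor called higher, at 0.35 ± 0.12 at P5 (adjusted p = 0.0484), with signals of 6.08, 6.03 and 6.24 at E15.5, 6.20, 6.62 and 6.56 at P5 and 6.16, 6.25 and 6.34 at P10. Its P5 and E15.5 arrays overlapped, with P5 array 1 at the E15.5 level. The call was lost without any 1 of the 9 arrays except E15.5 array 3 and P5 array 1 (adjusted p = 0.062 to 0.15).

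Of the 8 ephrins, 4 (50%) fell at P5 and at P10, beside 17.7% and 18.6% of all genes, and the calls spanned the A and B classes. Efna5, an ephrin-A, had signals of 10.76, 10.65 and 10.79 at E15.5, 8.73, 9.34 and 8.19 at P5 and 7.87, 8.55 and 8.34 at P10. Its difference from E15.5 was -1.98 ± 0.28 at P5 (adjusted p = 0.000605) and -2.48 ± 0.28 at P10 (adjusted p = 0.000123). Efnb1, an ephrin-B, had signals of 9.19, 9.04 and 8.90 at E15.5, 7.97, 8.12 and 7.35 at P5 and 7.44, 7.10 and 7.11 at P10, with differences of -1.23 ± 0.20 at P5 (adjusted p = 0.00129) and -1.83 ± 0.20 at P10 (adjusted p = 9.78e-05). Efnb2, the ephrin-B known as a mark of arteries, had signals of 7.74, 7.70 and 8.16 at E15.5, 6.82, 6.67 and 6.91 at P5 and 6.49, 6.60 and 6.74 at P10, with differences of -1.07 ± 0.13 at P5 (adjusted p = 0.000325) and -1.26 ± 0.13 at P10 (adjusted p = 9.06e-05). All 3 had E15.5 arrays above every postnatal array and postnatal stages that overlapped. Efna2 had smaller differences of -0.37 ± 0.12 at P5 (adjusted p = 0.0499) and -0.58 ± 0.12 at P10 (adjusted p = 0.00549), and its P5 call lay at the threshold and was lost without any 1 of the 9 arrays except E15.5 array 3 (adjusted p = 0.056 to 0.12). Its P5 arrays 1 and 3 held the same value of 6.08, which lowers its SE.

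Efna1, the ephrin-A first known from endothelial cells, was not called but had the largest postnatal increase among members without a call, a gene named here after its values were seen. Its signals were 7.12, 7.62 and 7.16 at E15.5, 7.77, 7.62 and 9.13 at P5 and 8.82, 7.87 and 8.60 at P10. The arrays of P5 and of P10 spread by about 1 unit or more, and the P10 arrays lay above the E15.5 arrays. Efna1 differed from E15.5 by 0.87 ± 0.41 at P5 (adjusted p = 0.141) and 1.13 ± 0.41 at P10 (adjusted p = 0.0608).

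Of the 13 Eph receptors, 6 (46.2%) fell at P5 and at P10, beside 17.7% and 18.6% of all genes. Epha7, a receptor of the ephrin-A class, had signals of 10.04, 10.05 and 10.32 at E15.5, 7.13, 6.87 and 6.93 at P5 and 5.92, 6.58 and 6.76 at P10. Its difference from E15.5 was -3.16 ± 0.20 at P5 (adjusted p = 6.81e-06) and -3.72 ± 0.20 at P10 (adjusted p = 1.80e-06), an 8.95-fold and a 13.2-fold lower signal. Epha3, which binds Efna5 with high affinity, had signals of 8.37, 8.24 and 8.56 at E15.5, 7.37, 6.29 and 6.83 at P5 and 5.63, 6.33 and 6.14 at P10, with differences of -1.56 ± 0.27 at P5 (adjusted p = 0.00224) and -2.35 ± 0.27 at P10 (adjusted p = 0.000162). In both genes all E15.5 arrays were above all postnatal arrays.

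Epha4, which binds ephrins of both classes, had signals of 7.27, 7.60 and 6.99 at E15.5, 5.75, 5.82 and 5.51 at P5 and 5.50, 5.46 and 5.45 at P10, with differences of -1.59 ± 0.15 at P5 (adjusted p = 5.61e-05) and -1.82 ± 0.15 at P10 (adjusted p = 1.81e-05). Its P10 mean was under the mark for dim probe sets. Ephb4, the receptor of Efnb2 known as a mark of veins, had signals of 8.35, 8.23 and 8.25 at E15.5, 7.39, 7.48 and 7.77 at P5 and 7.25, 7.09 and 7.10 at P10, with differences of -0.72 ± 0.10 at P5 (adjusted p = 0.000664) and -1.13 ± 0.10 at P10 (adjusted p = 3.63e-05). Both genes had stages that did not overlap in any pair. Smaller falls were called for Epha2, with -0.43 ± 0.10 at P5 (adjusted p = 0.0109) and -0.50 ± 0.10 at P10 (adjusted p = 0.00422), and for Ephb3, with -0.52 ± 0.077 at P5 (adjusted p = 0.000866) and -0.63 ± 0.077 at P10 (adjusted p = 0.000217). Epha1, Epha5, Epha6, Epha8, Epha10, Ephb1 and Ephb6 had no call.

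Efna5 and Epha3, a cue and its receptor that fell together, and Ntn4, which rose, are shown with the 250 bases before their annotated start (RefSeq, GRCm38.p6), on the coding strand and 5′ to 3′. They were chosen after the values were seen, for starts that lie at the edge of the gene. Capitals mark the GC box GGGCGG or its reverse complement CCGCCC, the hexamer read by Sp1-type factors.
Efna5: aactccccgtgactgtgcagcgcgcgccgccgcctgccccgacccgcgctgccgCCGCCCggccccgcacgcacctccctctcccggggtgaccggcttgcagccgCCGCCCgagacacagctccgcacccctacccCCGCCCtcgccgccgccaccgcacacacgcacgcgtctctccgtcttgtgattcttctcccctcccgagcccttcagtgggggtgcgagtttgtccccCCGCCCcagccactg
Epha3: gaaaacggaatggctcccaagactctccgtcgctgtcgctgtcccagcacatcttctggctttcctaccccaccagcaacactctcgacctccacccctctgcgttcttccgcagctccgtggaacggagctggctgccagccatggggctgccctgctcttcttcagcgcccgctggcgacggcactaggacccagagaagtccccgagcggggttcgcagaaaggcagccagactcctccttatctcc
Ntn4: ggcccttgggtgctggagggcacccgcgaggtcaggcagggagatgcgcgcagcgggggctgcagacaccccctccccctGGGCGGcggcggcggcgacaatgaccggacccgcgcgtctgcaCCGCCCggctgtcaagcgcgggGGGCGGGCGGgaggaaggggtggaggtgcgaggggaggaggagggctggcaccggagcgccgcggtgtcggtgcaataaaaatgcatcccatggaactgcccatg
The Efna5 window (chr17:62881318-62881567, minus strand) held 32 CpG dinucleotides and 4 GC boxes at 74.8% G and C. The Epha3 window (chr16:63864176-63864425, minus strand) held 16 CpG, no GC box and 62.8% G and C, and the Ntn4 window (chr10:93640799-93641048, plus strand) held 26 CpG, 4 GC boxes, some overlapping, and 73.2% G and C. Of the 70 members, 60 had a promoter in the table. The median number of CpG in the window was 16 over the 31 of 36 members called lower at P5 or P10, 13.5 over 24 of the 29 members with no call, and 11 over 15614 measured genes. A GC box on either strand was in 77.4%, 70.8% and 46.0% of these sets in turn. The letters CCAAT were in 22.6%, 29.2% and 35.5%, TATAAA in 6.45%, 0% and 11.2%, TAATTA in 0%, 12.5% and 4.12%, and CACGTG in 6.45%, 4.17% and 7.03%, on either strand. These matches describe letters in a window and no binding.

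Of the netrin system, 1 cue rose at P5 and several receptors fell. Ntn4, a netrin that binds laminin in basement membranes, was the one of 4 netrins with a call, with signals of 6.23, 6.12 and 6.13 at E15.5, 6.87, 6.72 and 6.39 at P5 and 6.53, 6.39 and 6.43 at P10. All postnatal arrays lay above the E15.5 arrays, and the difference was 0.50 ± 0.11 at P5 (adjusted p = 0.00910) and 0.29 ± 0.11 at P10 (adjusted p = 0.0819). Ntn1, the classical netrin, had differences of -0.19 ± 0.10 at P5 (adjusted p = 0.194) and -0.23 ± 0.10 at P10 (adjusted p = 0.111).

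Among the 4 Unc5 receptors and Dcc, 3 (60%) fell at P5 and 4 (80%) at P10, beside 17.7% and 18.6% of all genes. Unc5c had signals of 7.62, 8.06 and 7.45 at E15.5, 6.11, 6.17 and 5.89 at P5 and 5.95, 5.79 and 5.73 at P10. Its E15.5 arrays were above all postnatal arrays, and the difference was -1.65 ± 0.15 at P5 (adjusted p = 5.99e-05) and -1.88 ± 0.15 at P10 (adjusted p = 1.99e-05). Unc5a differed by -0.68 ± 0.090 at P5 (adjusted p = 0.000450) and -0.65 ± 0.090 at P10 (adjusted p = 0.000489) and Dcc by -0.46 ± 0.070 at P5 (adjusted p = 0.00101) and -0.42 ± 0.070 at P10 (adjusted p = 0.00135), both lower at both stages. Unc5b, the family member known from blood vessels, was called at P10, with -0.01 ± 0.10 at P5 (adjusted p = 0.954) and -0.36 ± 0.10 at P10 (adjusted p = 0.0175), a call lost without E15.5 array 1 or 2 or P10 array 3 (adjusted p = 0.056 to 0.064). Unc50, which is no netrin receptor, was also lower, with -0.60 ± 0.15 at P5 (adjusted p = 0.0142) and -0.65 ± 0.15 at P10 (adjusted p = 0.00862).

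Between P5 and P10 fewer members changed. In limma 7 of 70 were called, all lower and none higher, while 5.65% of all genes were called, 2.89% lower and 2.76% higher, and 1 member had an unadjusted p under 0.05 in the upward direction. Centring on the median of all genes gave 1 higher and 6 lower. The 7 were 4 semaphorins, namely Sema3c, Sema5a, Sema6a and Sema6d, and 3 receptors, namely Plxna4, Plxnb2 and Robo2. Their differences were -0.72 ± 0.10 (adjusted p = 0.00726) for Sema5a, -1.28 ± 0.25 (adjusted p = 0.0229) for Sema6a, -0.68 ± 0.16 (adjusted p = 0.0482) for Sema6d, -0.52 ± 0.057 (adjusted p = 0.00230) for Plxna4, -0.85 ± 0.12 (adjusted p = 0.00566) for Plxnb2 and -0.53 ± 0.11 (adjusted p = 0.0337) for Robo2. The arrays of P5 and P10 did not overlap in 16 members (22.9%), beside 20.2% of all genes. The calls of Sema5a, Plxna4 and Plxnb2 held in all alternatives. The count of 7 fell to 4 without E15.5 array 2 or P5 array 2 and to 3 without P10 array 1, 2 or 3. The Sema6d call was lost without any 1 array except P5 array 2 or 3 (adjusted p = 0.074 to 0.13), and the Robo2 call without any except E15.5 array 3 or P5 array 3 (adjusted p = 0.055 to 0.099). The Sema6a call was lost without P5 array 2 or P10 array 1, 2 or 3 (adjusted p = 0.056 to 0.088).

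Of the 29 members with no call, 8 had their highest stage mean under the mark for dim probe sets, from 4.61 to 5.64. These 8 were Sema3e, Sema4f, Sema7a, Robo3, Efna3, Epha5, Epha6 and Ephb1, and for them these data set no level. The other 21 had highest stage means of 5.85 to 8.43 and differences from E15.5 of -0.23 to 0.87 at P5 and -0.29 to 1.13 at P10. They were Efna1, described above, and Sema3b, Sema3g, Sema4d, Sema5b, Sema6b, Plxna2, Plxnb3, Nrp2, Slit1, Efna4, Efnb3, Epha1, Epha8, Epha10, Ephb6, Ntn1, Ntn3, Ntn5, Unc5d and Unc5cl. By gene order, Sema3a and Sema3d, direct neighbours, both fell, and in the run Efna1, Efna3 and Efna4 no gene was called.

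Markers of other cell types the gate could hold are set beside some members here. Sinusoidal endothelial markers had a mean of 6.93 to 7.14 at E15.5, 6.63, 8.07 and 8.41 on P5 arrays 1 to 3, and 6.81 to 7.38 at P10. At P5, 2 of 12 (16.7%) were called higher than at E15.5, near the 17.9% of all genes, and at P10 0 were called. The list's median difference from E15.5 was 0.88 at P5 and 0.057 at P10. Like the endothelial mean, Sema6a, Plxnd1, Robo4, Plxnc1 and Nrp1 were lower on P5 array 1 than on P5 arrays 2 and 3. So were other members, among them Sema3c, Sema3d, Robo1, Nrp2, Plxna2 and Epha1, so this order is not particular to those 5. Across stages the likeness did not hold for most of them. Against E15.5, Nrp1 and Plxnc1 fell at P5 (-2.68 and -2.20), and Sema6a and Plxnd1 fell at P10 (-1.48 and -0.65), unlike the list's medians. Robo4 was higher at P5 (0.35). With P5 array 1 as the sole P5 sample, 26 members were called lower and 4 higher at P5. That fit, added after the data were seen, takes the lone P5 array to vary like the other stages. The part of endothelial cells in the values of any of these genes was not tested.

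The 8 mesothelial markers had means of 7.39 to 7.49 at E15.5, 8.01, 8.46 and 8.59 on P5 arrays 1 to 3 and 6.15 to 6.45 at P10, and 8 of 8 were called lower at P10 than at P5. Against E15.5, 5 of the 8 were called higher at P5 and 1 lower, and at P10 6 were lower. The 1 lower at P5 was Wt1 (-0.97 ± 0.097, adjusted p = 9.09e-05), so the list did not rise as a whole. The 3 P5 arrays of Wt1 held the same value of 8.11 (SD 0), which lowers its SE. Sema3c had the same order of stages as the mesothelial mean and, within P5, the same order of arrays. The endothelial mean had this order of arrays within P5 too, and the cholangiocyte mean was also highest at P5 (7.02 to 7.18). Ntn4 was also highest at P5, but on P5 array 1, where the mesothelial mean was lowest. The 6 measured neural and Schwann cell markers had means of 5.43 to 6.01 on all arrays, with 3 or 4 of 6 under the mark for dim probe sets at each stage. At P5, 2 of these 6 were called lower and 1 higher, and at P10 1 was lower. The neuronal gene Stmn2 was among those that fell, with means of 7.04 before birth, then 4.99 at P5 and 4.93 at P10 and differences of -2.05 ± 0.36 at P5 (adjusted p = 0.00220) and -2.11 ± 0.36 at P10 (adjusted p = 0.00156). Its E15.5 arrays spread from 6.39 to 7.98. Tubb3 was the other one called lower at P5 (-0.30 ± 0.087, adjusted p = 0.0262), with a difference of 0.0028 at P10. Sox10 was the one called higher at P5 (0.27 ± 0.086, adjusted p = 0.0405). The 8 macrophage markers had means of 5.45 to 5.62, with 4 of 8 under the mark for dim probe sets. At P5, 2 of them (Csf1r and C1qa) were called higher and 1 lower, and at P10 1 was higher and 1 lower. Cd68 was the lower one at both stages, with -0.77 ± 0.14 at P5 (adjusted p = 0.00289) and -1.09 ± 0.14 at P10 (adjusted p = 0.000317). The 6 cholangiocyte markers had 3 called higher at P5 and the 5 erythroid markers had 3 called lower. Of the 8 markers of portal fibroblasts and smooth muscle, 2 were higher and 2 lower at P5, and 4 were lower at P10. Of all genes, 17.7% were called lower and 17.9% higher at P5 than at E15.5, and 18.6% lower and 20.1% higher at P10. Between P5 and P10, 2.89% were called lower. The part of these cell types in the members' values was not tested.

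**Figure D4:**
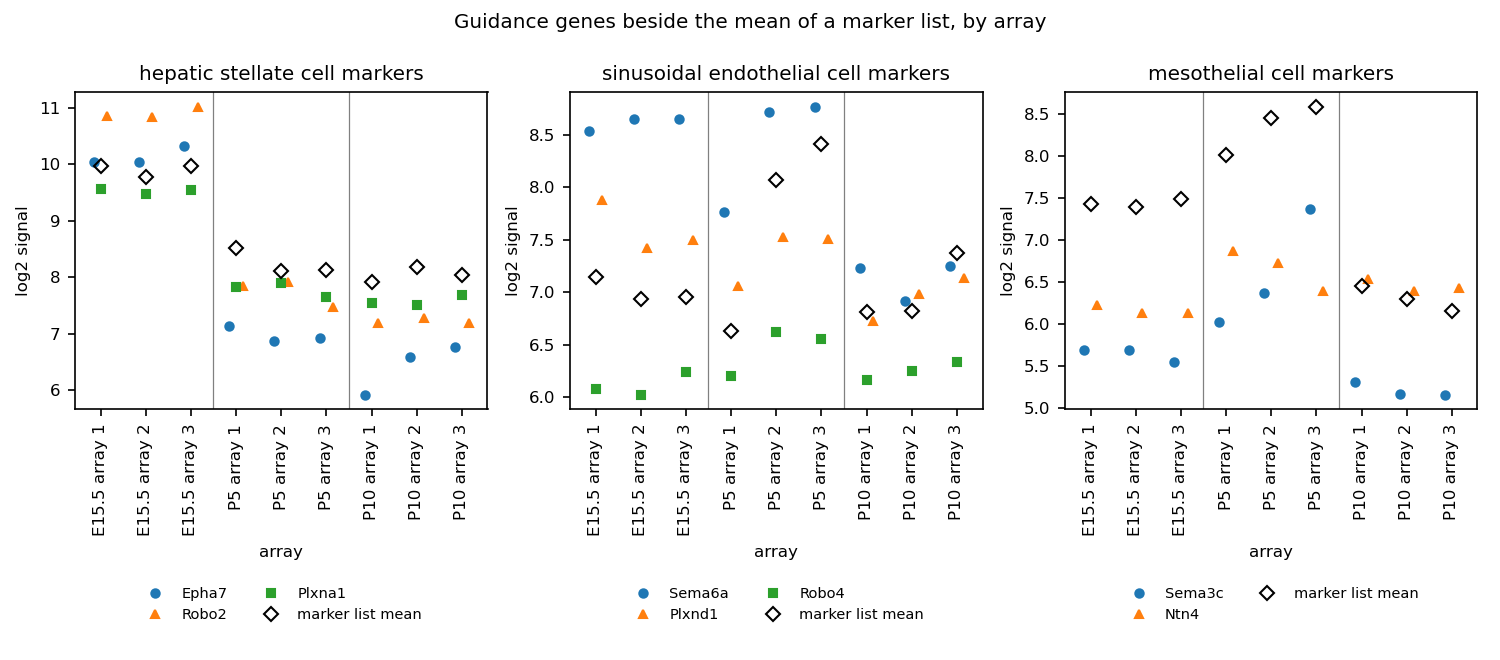
Log2 signal (vertical axis) on each of the 9 arrays for guidance genes (coloured points) and for the mean of a list of cell type markers (open diamonds), in 3 panels for hepatic stellate, sinusoidal endothelial and mesothelial cells. Epha7, Robo2, Plxna1 and the stellate mean drop after E15.5, Sema6a, Plxnd1, Robo4 and the endothelial mean are low on P5 array 1 relative to P5 arrays 2 and 3, and Sema3c and the mesothelial mean peak at P5.

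Genes that work beside these families were read from 2 further lists. Of 31 co-receptors, processing enzymes and other cues, 13 fell and 4 rose at P5, and 13 fell and 2 rose at P10, with medians of -0.11 and -0.14. These are 41.9% lower and 12.9% higher at P5, beside 17.7% and 17.9% of all genes, and 41.9% and 6.45% at P10, beside 18.6% and 20.1%. Neo1, a Dcc relative that also binds netrins, differed by -1.79 ± 0.070 at P5 (adjusted p = 4.17e-07) and -3.06 ± 0.070 at P10 (adjusted p = 2.23e-08), and Flrt2, a binding partner of Unc5 receptors, by -2.68 ± 0.13 at P5 (adjusted p = 1.62e-06) and -3.95 ± 0.13 at P10 (adjusted p = 1.43e-07). The 3 P5 arrays of Flrt2 held the same value of 7.21 (SD 0), which lowers its SE and the p-values used here. Itgb1, the integrin subunit through which Sema7a can signal, differed by -1.70 ± 0.12 at P5 (adjusted p = 1.36e-05) and -2.62 ± 0.12 at P10 (adjusted p = 7.58e-07), and Adam10, a protease that sheds ephrins, by -1.55 ± 0.086 at P5 (adjusted p = 2.88e-06) and -2.58 ± 0.086 at P10 (adjusted p = 1.34e-07). Of 61 cytoplasmic effectors, 22 fell and 7 rose at P5, and 20 fell and 10 rose at P10. As shares of the list they are 36.1% lower and 11.5% higher at P5, and 32.8% lower and 16.4% higher at P10, to be read beside the shares of all genes just given. Dpysl2, a mediator of Sema3a signals in axons, differed by -1.89 ± 0.19 at P5 (adjusted p = 8.23e-05) and -2.84 ± 0.19 at P10 (adjusted p = 5.42e-06), and Evl, an actin regulator, by -1.12 ± 0.11 at P5 (adjusted p = 7.61e-05) and -1.35 ± 0.11 at P10 (adjusted p = 1.84e-05). In the other direction were Ngef, an exchange factor that acts with Epha4, with 1.60 ± 0.16 at P5 (adjusted p = 9.59e-05) and 1.76 ± 0.16 at P10 (adjusted p = 3.87e-05), and Chn2, a chimaerin, with 2.84 ± 0.13 at P5 (adjusted p = 8.36e-07) and 3.25 ± 0.13 at P10 (adjusted p = 2.71e-07). These 8 had the smallest p of the F test over the 3 stages within their lists, 4 from each. No test of the lists as sets was run.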

How the data were processed

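Total RNA of the 9 sorted samples was extracted with Trizol and hybridised as biotinylated cRNA to Affymetrix arrays, per the labels. The deposited values are log2 signals that the authors made by RMA with Affymetrix Expression Console, and Transcriptome Analysis Console 2.0 is also named, per the submitters' processing notes. RMA corrects background and normalises arrays by quantiles, which can hide a shift common to most genes. No scanner files were used here, so other background corrections and a slide block were not tried, and no source used here gives the genome build behind the array. Precision is limited by 3 arrays per stage, and 12 members had equal values on at least 2 arrays of a stage, which lowers their SD. Among these, the called members were Sema4c and Efna2, both with equal values at P5.

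Of 35556 probe sets, 21789 have 1 gene symbol, 1621 have several and 12146 are not listed in the annotation. Symbols of 21698 were updated or checked by Entrez identifier against a RefSeq table, also used for gene order. Each of 19938 genes was represented by the probe set with the highest mean over 9 arrays. No filter and no further scaling were applied. Stage was the only term in limma 3.58.1 (R 4.3.3, statmod 1.5.0), with 2-sided moderated tests and 6 residual degrees of freedom. The fit was tested on simulated data.

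The members, marker lists and pathway lists were chosen with earlier results of these data known, so no p-value over a list is given. Values on every array are given for members called with a difference of at least 1 on the log2 scale. Other called members get differences, and members without a call get counts and ranges. Up to 4 genes per other list, with the smallest F test p, were to be named, plus Cxcl12, Alb, Pecam1 and Lrat, and of the marker lists mostly counts and list means are given. Alternatives covered scaling, a floor, a filter on dim genes, the choice of probe set, the variance model, the samples fitted, a replicate block and leaving out each array. Promoters come from a RefSeq table of GRCm38.p6. Matplotlib 3.10.9 (Python 3.11.15) drew the figures.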

Additional observations from a re-analysis of the deposited data

How the results depend on the processing

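Of the members called in each comparison, 28 of 36 at P5 against E15.5, 35 of 37 at P10 against E15.5 and 3 of 7 at P10 against P5 were called under every alternative, and 32, 35 and 3 in every fit that left out 1 array. No called member changed direction. Quantile normalisation turned 2 members without a call, Sema3g to 0.18 and Ephb6 to 0.14 at P10 minus E15.5, and the cause was not tested. It also gave 12 members higher at P5 and 19 at P10 (against E15.5), receptor medians of -0.30 and -0.31 and a cue median of -0.0094 at P10. Centring on all genes gave 9 higher at P10, a cue median there of -0.11 and 1 member higher at P10 than at P5. Centring on 55 ribosomal protein genes gave 6 higher at P10 and a cue median of -0.12. With values raised to percentile 30, 3 members were higher at P5 and 3 lower at P10 than at P5. Keeping the genes above that percentile, which drops dim members, gave P10 medians of -0.29 for cues and -0.63 for receptors, and 1 member higher at P10 than at P5. Fitting only the 2 stages compared, with fewer arrays, gave 3 higher at P5, 4 higher at P10 and 3 lower at P10 than at P5. Without P5 arrays 2 and 3 together, chosen after seeing the data, 4 members were higher at P10, the receptor median of P10 minus P5 was -0.098, and the P5 calls of Sema3f, Sema4c, Slit2 and Epha2 were among those lost. Leaving out 1 array at a time gave 3 to 5 higher and 29 to 31 lower at P5, 2 to 4 higher and 34 to 36 lower at P10, and 0 to 1 higher and 3 to 9 lower at P10 than at P5. In these fits the cue medians ran from -0.21 to -0.12, -0.22 to -0.17 and -0.14 to -0.087 in the 3 comparisons in turn, and the receptor medians from -0.46 to -0.33, -0.55 to -0.48 and -0.20 to -0.13. Arrays with the same number in different stages did not deviate together (r of residuals from -0.080 to 0.069, 0 of 9 pairs over 0.1). With the number as a replicate block, 4 members were higher and 31 lower at P5, 2 higher and 35 lower at P10, and 5 lower at P10 than at P5. Stage means under the mark for dim probe sets limit the differences of Sema3a, Sema3c, Slit2 and Epha4 and the 8 dim members. No detection test was run.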
